A study of Mus musculus with 15 samples.

Results

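The 10 genes described here carry bile acids and other bile constituents across the hepatocyte membrane, or control that traffic. They were chosen by symbol for their place in this traffic, and are Abcb11, Abcb4, Abcc2 and Atp8b1 of the bile canaliculus, Abcc3 and Abcc4 of the blood-facing (basolateral) membrane, the uptake carriers Slc10a1 and Slco1b2, and the nuclear receptors Nr1h4 and Nr0b2. They are 10 of the 20325 genes listed for each liver, and all 10 were among the 12377 genes that passed the filter on low counts.

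The data were RNA-seq profiles of livers from 15 male C57BL/6J mice, 19 weeks old, in 5 groups of 3. ConvR HF/HS mice were raised with a conventional microbiota on a high-fat, high-sugar diet with 44.6% of energy from fat, 40.6% from carbohydrate and 14.8% from protein. GF HF/HS mice were germ-free and ate that same diet. ConvD chow mice were born germ-free, received cecal contents of chow-fed ConvR donors by gavage at 15 weeks of age, and were sampled 4 weeks later. ConvR chow mice had a conventional microbiota, and GF chow mice were germ-free. The chow supplied 23.7% of energy from fat, 53.2% from carbohydrate and 23.1% from protein, and all mice ate their assigned diet from 3 weeks of age. Mice were housed together by colonization status and diet, GF and ConvR mice in separate isolators and ConvD mice in filter-top cages, so housing and group cannot be told apart. Each library is a whole-liver sample of 1 mouse. In such bulk tissue, fewer cells of a type and less RNA per cell cannot be told apart.

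Bile acids are made from cholesterol in the hepatocyte, pumped into bile, reabsorbed in the ileum and taken up again from portal blood. Gut bacteria remove their conjugating amino acids and change their hydroxyl groups, so the pool differs between germ-free and colonized animals. The nuclear receptor FXR, product of Nr1h4, senses bile acids. It pairs with the retinoid X receptor, induces the export pump Abcb11, and induces Nr0b2 (small heterodimer partner, SHP), a receptor without a DNA-binding domain that represses bile acid synthesis and uptake.

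The classical DNA element of FXR with its partner is an inverted repeat of the hexamer AGGTCA with 1 base between the repeats, called IR-1 and written AGGTCANTGACCT. It reads the same on both strands. It was searched, allowing 1 mismatch, in RefSeq promoter windows of the build GRCm38.p6 that run from 250 bases before to 50 after an annotated start. Of the 10 genes, Abcc3 and Atp8b1 had no window examined here, so nothing is said of their promoters. Windows of the other 8 were examined, 10 in all. The motif was present in 2 of these windows, those of Abcb11 and Slco1b2, and in 27 of all 32851 windows (0.0822%). The closest match in the other member windows had 3 mismatches. The 2 windows with the motif are printed with the 13 bases in capitals, and the window of Abcb4 is printed because that gene was called in more comparisons than the others. The Abcb11 window lies at chr2:69342567-69342866 on the minus strand and the Slco1b2 window at chr6:141629268-141629567 on the plus strand. The Abcb4 window, at chr5:8893471-8893770 on the plus strand, has no capitals, its closest match having 4 mismatches.
Abcb11: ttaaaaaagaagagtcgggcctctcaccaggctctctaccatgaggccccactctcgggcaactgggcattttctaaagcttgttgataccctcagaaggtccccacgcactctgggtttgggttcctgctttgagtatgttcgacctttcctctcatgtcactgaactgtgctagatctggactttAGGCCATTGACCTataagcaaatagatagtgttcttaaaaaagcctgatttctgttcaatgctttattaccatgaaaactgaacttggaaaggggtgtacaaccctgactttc
Slco1b2: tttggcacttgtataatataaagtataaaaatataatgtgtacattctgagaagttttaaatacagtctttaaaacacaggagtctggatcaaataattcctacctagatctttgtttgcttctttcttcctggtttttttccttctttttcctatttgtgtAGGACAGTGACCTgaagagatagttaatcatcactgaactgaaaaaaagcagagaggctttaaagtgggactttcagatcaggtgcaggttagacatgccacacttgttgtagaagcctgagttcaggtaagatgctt
Abcb4: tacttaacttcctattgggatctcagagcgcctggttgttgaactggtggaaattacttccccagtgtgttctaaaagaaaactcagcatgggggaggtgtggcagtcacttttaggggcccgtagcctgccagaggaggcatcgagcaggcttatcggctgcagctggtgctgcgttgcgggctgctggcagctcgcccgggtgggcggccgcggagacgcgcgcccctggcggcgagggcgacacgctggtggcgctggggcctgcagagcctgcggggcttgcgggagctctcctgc

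The Abcb11 match, at chr2:69342667-69342679, starts 63 bases before the annotated start and differs from the motif by T4C, counted from 1 at the motif's 5′ end. The Slco1b2 match, at chr6:141629430-141629442, starts 88 bases before the start and differs by T4A. These matches describe the reference sequence only, and a window without a match says nothing about binding of FXR elsewhere.

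The libraries held expected counts summing to 14737600 to 21794800, and libraries of a group correlated with each other at r of 0.968 to 0.992. Features of the chow libraries stand beside the values that follow. The summed level of 10 acute phase transcripts (Saa1, Hp and others) was 50671 and 66776 CPM (counts scaled to the library total) in ConvR chow mice 1 and 2, against 6384 to 10332 CPM in the other 13 livers, ConvR chow mouse 3 included. Of these 10 transcripts, 8 were higher in ConvR chow than in GF chow livers, 9 were lower in ConvD chow than in ConvR chow livers, and all 10 were lower in ConvR HF/HS than in ConvR chow livers. Every ConvR chow liver, mouse 3 included, had at least 789 CPM of Saa1, 695 of Saa2, 35.2 of Saa3, 75.1 of Lcn2 and 94.1 of Orm2. The other 12 livers had at most 114, 53.8, 5.10, 20.1 and 15.2 CPM of these. Hp, Crp and Fgb of ConvR chow livers overlapped those of GF chow livers. The summed level of 8 immediate early transcripts (Fos, Egr1 and others) was 1284, 340 and 148 CPM in GF chow mice 1, 2 and 3, against 30.7 to 134 CPM in the other 12 livers. Of these, 6 were lower in ConvR chow, 8 in ConvD chow and 7 in GF HF/HS livers than in GF chow livers. The summed level of 7 neutrophil and monocyte markers was 42.6 and 53.2 CPM in ConvR chow mice 1 and 2, against 2.21 to 7.64 CPM in the other 13 livers. Of the 5 of them that were tested, 3 were higher in ConvR chow than in GF chow livers, and 3 were lower in ConvD chow and 3 in ConvR HF/HS than in ConvR chow livers. All 8 hepatocyte markers were present in every liver. Their sum was 91432 to 97476 CPM in ConvR HF/HS, 126858 to 132020 CPM in GF HF/HS and 99941 to 115415 CPM in ConvD chow livers. It was 68739, 64178 and 91126 CPM in ConvR chow mice 1, 2 and 3, and 87187 to 106113 CPM in GF chow livers. ConvR chow mice 1 and 2 had the lowest sums of the 15. Alb was the largest part, averaging 44689 CPM in ConvR chow and 66777 CPM in GF chow livers. Fgb, which is also among the acute phase transcripts, averaged 8368 and 4474 CPM there. Between these 2 groups 0 of the 8 markers were called. Against ConvR chow, 1 of 8 rose in ConvD chow and 1 of 8 fell in ConvR HF/HS livers. Whether hepatocytes were fewer was not tested. The summed 8 cholangiocyte markers, of which the defining Krt19 had 0.86 to 5.02 CPM, ranged from 75.0 to 172 CPM in ConvR HF/HS, 78.7 to 99.2 CPM in GF HF/HS, 65.6 to 67.0 CPM in ConvD chow, 74.8 to 190 CPM in ConvR chow and 73.1 to 109 CPM in GF chow livers. The summed 8 sinusoidal endothelium markers ranged from 294 to 345 CPM in ConvR HF/HS and 298 to 335 CPM in GF HF/HS livers, against 226 to 301 CPM in the 9 chow livers, and 3 of 8 rose on HF/HS in ConvR and 4 of 8 in GF mice. The summed 6 enterocyte markers ranged from 1467 to 3737 CPM in ConvR HF/HS and 426 to 571 CPM in GF HF/HS livers, against 111 to 144 CPM in the 9 chow livers. Apoa4 and Fabp2 rose on HF/HS in ConvR mice and Apoa4 in GF mice. Of the others, Vil1 had at most 1.03 CPM, Lct and Sis at most 0.060 and 0.043 CPM, and Fabp6, the ileal bile acid binding protein, was at 0 in all 15 livers. The part of these transcripts in the results that follow was not tested.

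In TPM, a level per unit of transcript length and library that allows levels to be compared between genes, the uptake carriers were highest. Slco1b2 averaged 611 TPM over the 15 livers (range 380 to 719) and Slc10a1 averaged 519 TPM (212 to 778), and these ranges overlap. The export pump Abcb11 averaged 245 TPM (152 to 324), followed by Abcc2 with 133 TPM (77.0 to 171), Abcb4 with 104 TPM (55.1 to 169) and Abcc3 with 84.4 TPM (29.7 to 139). Each of these exporters overlapped its neighbours in that order. Nr1h4 averaged 63.6 TPM (53.3 to 77.2) and Nr0b2 52.8 TPM (33.7 to 81.9), also overlapping. Atp8b1 averaged 12.3 TPM (8.96 to 14.7), below every liver's value of the 8 genes named before it. Abcc4, with 0.703 TPM (0.40 to 1.37), was the lowest of the 10 in every liver.

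**Figure D1:**
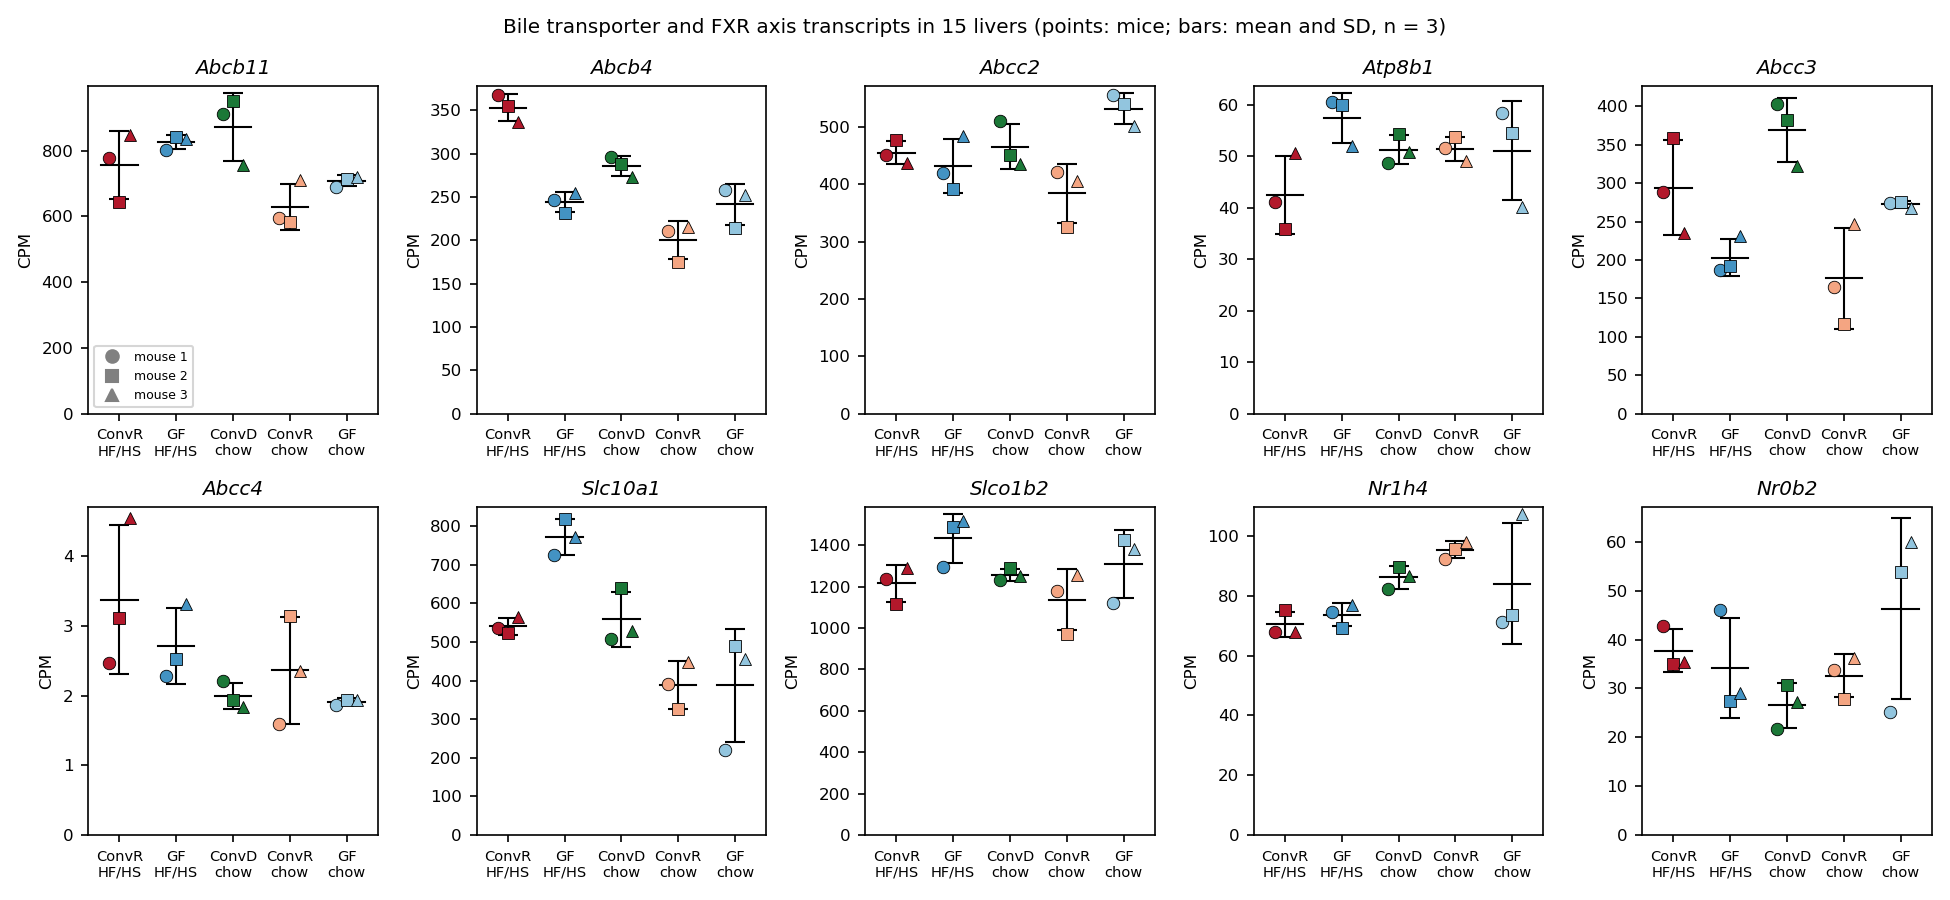
CPM of the 10 genes in each liver, by group (x axis), with points for mice 1 to 3 and bars for the group mean and SD (n = 3). Abcb4 is highest in the 3 ConvR HF/HS livers (337 to 367 CPM), Slc10a1 in the 3 GF HF/HS livers (724 to 818 CPM), and Abcc3 spans 116 to 403 CPM.

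Differences were tested with edgeR's quasi-likelihood test over all 12377 genes, with Benjamini-Hochberg adjustment, and a gene was called at an adjusted p below 0.05. Any difference among the 5 groups was called for 3 of the 10 genes, Abcb4 (adjusted p = 0.000851), Abcc3 (adjusted p = 0.0134) and Slc10a1 (adjusted p = 0.0168), against 25.7% of all genes. The members' share is near that background. The Slc10a1 call was lost without GF HF/HS mouse 2 (adjusted p = 0.0541) or without ConvR chow mice 1 and 2 (adjusted p = 0.0577).

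On HF/HS against chow, averaged over ConvR and GF mice, 3 of 10 genes were called, against 25.1% of all genes. Abcb4 and Slc10a1 rose and Nr1h4 fell. Within ConvR mice, 3 of 10 were called, Abcb4 and Abcc3 upward and Nr1h4 downward, against 14.6% of all genes. Within GF mice, Slc10a1 rose and no other member was called, 1 of 10 against 9.55% of all genes. The median log2 fold change of the 10 was 0.26 for ConvR mice and 0.07 for GF mice, where all genes had medians of -0.02 and -0.01. The ConvR and GF diet comparisons share no livers. On log2(TPM + 1), where the median of all genes in ConvR mice was 0.30 and 6100 genes were called, limma called 7 of the 10 for HF/HS in ConvR mice. Abcb11, Abcc2, Abcc4, Slc10a1 and Slco1b2 were added and Nr1h4 was not among them.

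For the microbiota, ConvR chow against GF chow livers gave 1 call of 10, a fall of Abcc2, against 4.72% of all genes. On HF/HS, ConvR against GF livers gave 1 call, a rise of Abcb4, against 1.62% of all genes. Averaged over diets, ConvR against GF livers gave no call among the 10, against 8.39% of all genes; 3 of the 10 had an unadjusted p below 0.05, as had 25.6% of all genes, and DESeq2 also called none. ConvD chow against GF chow livers gave no call, against 5.59% of all genes; 4 of the 10 had an unadjusted p below 0.05, as had 24.3% of all genes, and DESeq2 called 1, Nr0b2, among 1116 genes. ConvD chow against ConvR chow livers gave 3 calls, Abcb11, Abcb4 and Abcc3, all higher in ConvD chow, against 5.50% of all genes. On log2(TPM + 1), with a median of all genes of 0.21 and 3725 genes called, limma called 6 of the 10 there, Abcc2, Slc10a1 and Slco1b2 being added. The shares of all genes called moved over 1.5 times when single libraries were left out, except for the averaged HF/HS effect and for any difference. The 3 chow comparisons share groups with each other, so their values are not independent.

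The interaction, the ConvR minus GF difference in the response to HF/HS, was called for 0% of all genes and for none of the 10 by edgeR. At an unadjusted p below 0.05 it held 1573 of 12377 genes (12.7%) and 4 of the 10, Abcb4, Abcc2, Abcc3 and Atp8b1. DESeq2's Wald test called 109 genes, 2 of them members, Abcb4 and Abcc3.

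**Figure D2:**
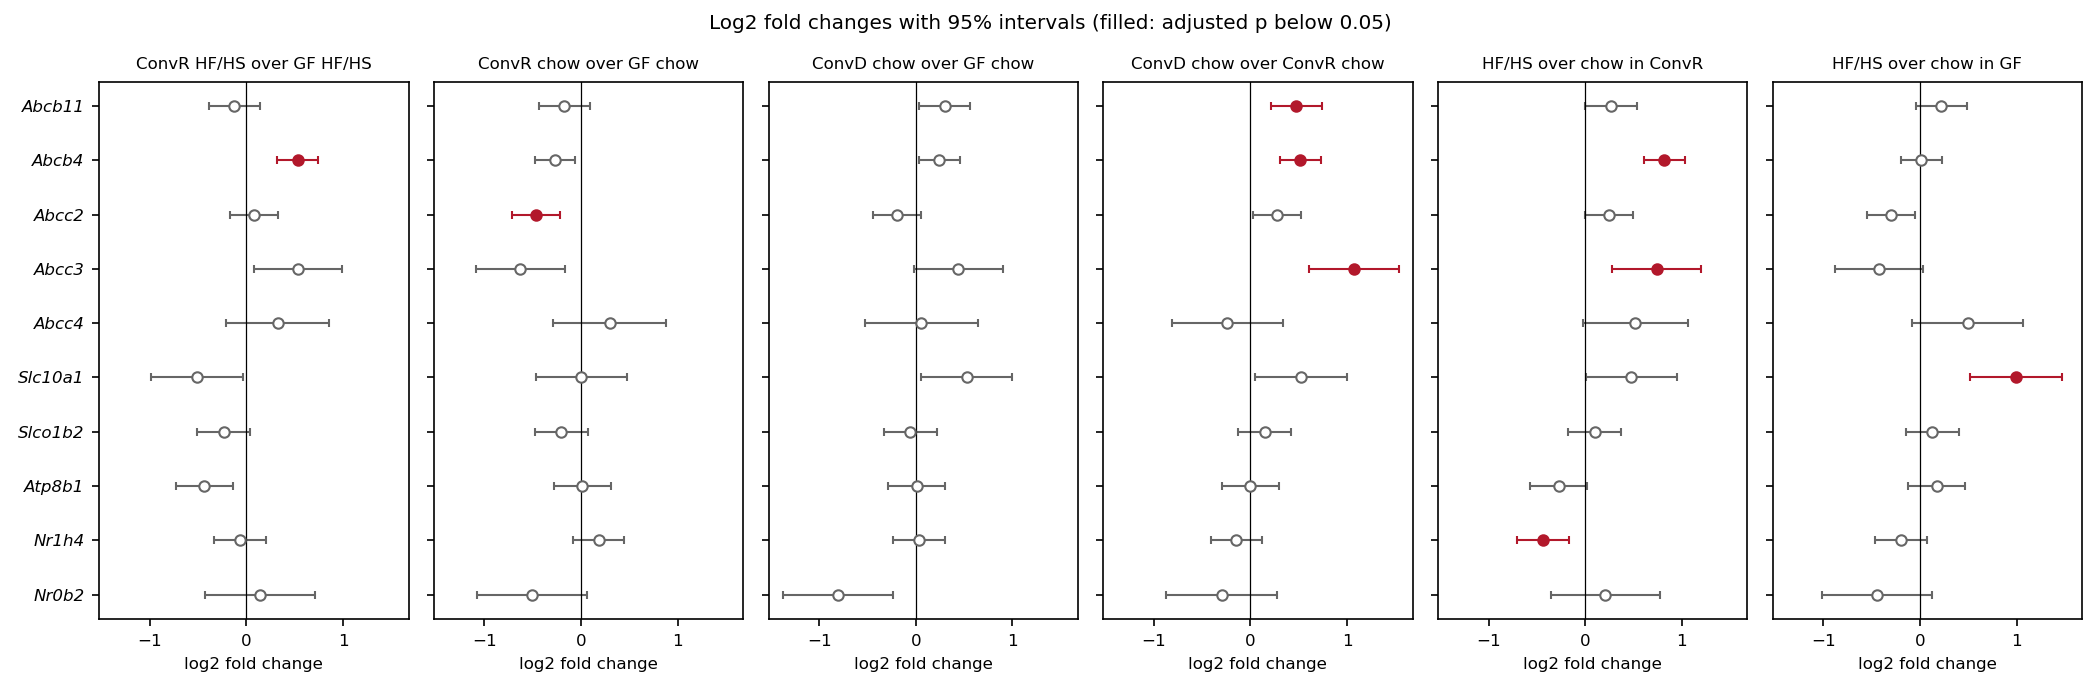
Log2 fold changes (x axis) of the 10 genes in 6 pairwise comparisons, the group named first over the group named second. Bars are 95% intervals derived from edgeR's F statistics, and filled points have an adjusted p below 0.05. Abcb4 is filled in 3 panels, Abcc3 in 2, and Atp8b1, Slco1b2, Abcc4 and Nr0b2 in none.

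Among the canalicular exporters, Abcb4 was called in the most comparisons. Abcb4 is the floppase that moves phosphatidylcholine into bile, where the lipid shields the biliary epithelium from bile acids. It had 367, 354 and 337 CPM in ConvR HF/HS mice 1, 2 and 3, against 246, 231 and 255 CPM in GF HF/HS mice. On chow it had 296, 288 and 273 CPM in ConvD, 210.3, 175 and 215 CPM in ConvR, and 258, 215 and 252 CPM in GF mice. Every ConvR HF/HS liver lay above every other liver, and every ConvD chow liver lay above the remaining 9. In ConvR mice Abcb4 rose on HF/HS by 0.82 ± 0.10 on the log2 scale (SE; 1.76-fold, adjusted p = 0.000266, edgeR), in 3 of 3 livers. In GF mice the difference was 0.02 with a 95% interval of -0.20 to 0.23 and an adjusted p of 0.94. The difference between these diet responses was 0.80 ± 0.14 (interval 0.50 to 1.10), with an adjusted p of 0.0503 by edgeR and 1.26e-05 by DESeq2. It was called by edgeR when ConvR chow mouse 3 (adjusted p = 0.00389) or ConvR HF/HS mouse 3 (adjusted p = 0.0457) was left out. Without ConvR chow mouse 3, the interaction was called for 450 of all genes. With any other single library left out, the Abcb4 interaction was not called. On HF/HS, Abcb4 was higher in ConvR than in GF livers by 0.53 ± 0.10 (1.45-fold, adjusted p = 0.0175), and that call was lost without GF HF/HS mouse 1, 2 or 3 or ConvR HF/HS mouse 2, with adjusted p of 0.0564 to 0.116. On chow, ConvR minus GF was -0.27 with an adjusted p of 0.12. With ConvR chow mice 1 and 2 both left out, the rise on HF/HS in ConvR mice was 0.71 (adjusted p = 0.0155), with the remaining ConvR chow liver assumed to vary like the other groups. Averaged over ConvR and GF mice the HF/HS effect was 0.42 ± 0.07 (adjusted p = 0.000995). Among the chow groups, ConvD livers were higher than ConvR livers by 0.51 ± 0.10 (1.43-fold, adjusted p = 0.0156). That call was lost without ConvR chow mouse 2 or ConvD chow mouse 1 or 2 (adjusted p of 0.0653 to 0.0761) and in a fit of the compared groups alone (adjusted p = 0.0640), and the difference was 0.41 (adjusted p = 0.30) without ConvR chow mice 1 and 2.

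Abcb11, the bile salt export pump and the FXR target whose promoter is printed above, varied less. It had 777, 645 and 847 CPM in ConvR HF/HS mice and 801, 843 and 834 CPM in GF HF/HS mice. The chow groups had 912, 950.2 and 755 CPM in ConvD, 595, 581 and 709.6 CPM in ConvR, and 689.7, 715 and 720.1 CPM in GF mice. The ConvD chow livers lay above both other chow groups, and the ConvR HF/HS livers overlapped the ConvR chow and GF HF/HS livers. Abcb11 was higher in ConvD chow than in ConvR chow livers by 0.47 ± 0.12 (1.39-fold, adjusted p = 0.0422). That call was lost without ConvR chow mouse 1 or 2 or ConvD chow mouse 1 or 2 (adjusted p of 0.13 to 0.17), with the gene length trend removed (0.39, adjusted p = 0.0691) and in a fit of the compared groups alone (adjusted p = 0.0972). The difference was 0.30 without ConvR chow mice 1 and 2. Against GF chow, ConvD chow livers differed by 0.30 (interval 0.04 to 0.57, adjusted p = 0.15). The averaged HF/HS difference was 0.24 ± 0.09 with an adjusted p of 0.0542, and it passed at 0.0190 without ConvR chow mouse 3, at 0.0221 without ConvR HF/HS mouse 2, at 0.0453 with DESeq2's size factors and at 0.0146 by DESeq2's Wald test. On log2(TPM + 1) it was 0.46 (adjusted p = 0.000927, limma), or 0.30 relative to the median of all genes. For HF/HS in ConvR mice Abcb11 differed by 0.27 (adjusted p = 0.17), and by 0.66 on log2(TPM + 1) (adjusted p = 0.000886, limma), or 0.36 relative to the median of all genes.

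Abcc2, the canalicular pump for bilirubin glucuronide and other conjugates, had 451, 478 and 438 CPM in ConvR HF/HS and 419.6, 392 and 484 CPM in GF HF/HS mice. On chow, levels were 510.3, 452 and 436 CPM in ConvD, 422, 325 and 406 CPM in ConvR and 556, 539.7 and 502 CPM in GF mice. The 3 ConvR chow livers lay below the 3 GF chow livers and the 3 ConvD chow livers. Abcc2 fell by 0.47 on the log2 scale in ConvR chow against GF chow livers (SE 0.12, 0.72-fold, adjusted p = 0.0372). Without GF chow mouse 1 or 2 or ConvR chow mouse 1 or 2 the adjusted p was 0.0616 to 0.155, and the difference without both ConvR chow mice was -0.39. With only these 2 groups fitted, the adjusted p was 0.28. HF/HS minus chow was 0.24 in ConvR and -0.30 in GF mice, neither called (adjusted p = 0.17 and 0.11). The diets did not overlap in either status, HF/HS livers lying above chow livers in ConvR mice and below them in GF mice. The interaction was 0.55 ± 0.16 (interval 0.20 to 0.90, adjusted p = 0.23). On log2(TPM + 1) it was 0.90 and called (adjusted p = 0.0336, limma), or 0.63 relative to the median of all genes.

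Atp8b1, the flippase that keeps aminophospholipids in the inner leaflet of the canalicular membrane, passed no test. It had 41.0, 35.8 and 50.7 CPM in ConvR HF/HS mice, against 60.5, 60.0 and 51.9 CPM in GF HF/HS mice, groups that did not overlap. The difference was -0.43 ± 0.14 with an adjusted p of 0.13. The 9 chow livers ranged from 40.2 to 58.4 CPM, and the 3 chow groups overlapped.

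The basolateral exporters carry bile acids and conjugates back into blood. Abcc3 had 288, 359 and 236 CPM in ConvR HF/HS mice and 187, 192 and 231 CPM in GF HF/HS mice. Chow livers had 403, 383 and 322 CPM in ConvD, 165, 116 and 246 CPM in ConvR and 274, 276 and 268 CPM in GF mice. The ConvD chow livers lay above both other chow groups, and ConvR livers lay below GF livers on chow and above them on HF/HS. Abcc3 was higher in ConvD chow than in ConvR chow livers by 1.07 ± 0.22 (2.10-fold, adjusted p = 0.0165), and in ConvR HF/HS than in ConvR chow livers by 0.74 ± 0.21 (1.67-fold, adjusted p = 0.0328), although the ConvR HF/HS and ConvR chow groups overlapped. ConvR chow mice 1 and 2, the livers with the highest summed acute phase transcripts, had the lowest Abcc3 of all 15. Without both, the ConvD minus ConvR difference was 0.58 (adjusted p = 0.37) and the HF/HS minus chow difference 0.26 (adjusted p = 0.52). The first call was also lost without any 1 of ConvR chow mice 1 and 2 and ConvD chow mice 1 and 2 (adjusted p of 0.0685 to 0.0778) and in a fit of the compared groups alone (0.0718). The second was lost without any 1 of ConvR chow mice 1 and 2 and ConvR HF/HS mice 1 and 2 (0.0644 to 0.134), with the gene length trend removed (0.0547) and in a fit of the compared groups alone (0.13). ConvR chow minus GF chow was -0.63 (adjusted p = 0.0977), and it reached -0.95 and passed at 0.00443 without ConvR chow mouse 3. In GF mice, HF/HS minus chow was -0.42 (interval -0.88 to 0.03), and the interaction was 1.17 ± 0.30 (interval 0.52 to 1.81, adjusted p = 0.20 by edgeR, 0.0205 by DESeq2 and 0.0336 by limma on log2(TPM + 1)). Without ConvR chow mouse 3 the interaction was 1.49 (adjusted p = 0.00365), and without ConvR chow mice 1 and 2 it was 0.68 (adjusted p = 0.67).

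Abcc4, which exports bile acids together with glutathione and is induced in cholestasis, stood near the lower end of the genes tested. It had 2.46, 3.12 and 4.55 CPM in ConvR HF/HS and 2.28, 2.52 and 3.32 CPM in GF HF/HS mice, against 1.59 to 3.13 CPM in the 9 chow livers. HF/HS livers were higher on average by 0.51 ± 0.18 with an adjusted p of 0.0578. It passed by edgeR without ConvR chow mouse 2 (0.0267) or ConvR HF/HS mouse 1 (0.0279), and with a replicate block (0.04996). On log2(TPM + 1) the averaged difference was 0.31 (adjusted p = 0.00486, limma), or 0.15 relative to the median of all genes. For HF/HS in ConvR mice it was 0.41 on that scale (adjusted p = 0.00624, limma), or 0.11 relative to that median.

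**Figure D3:**
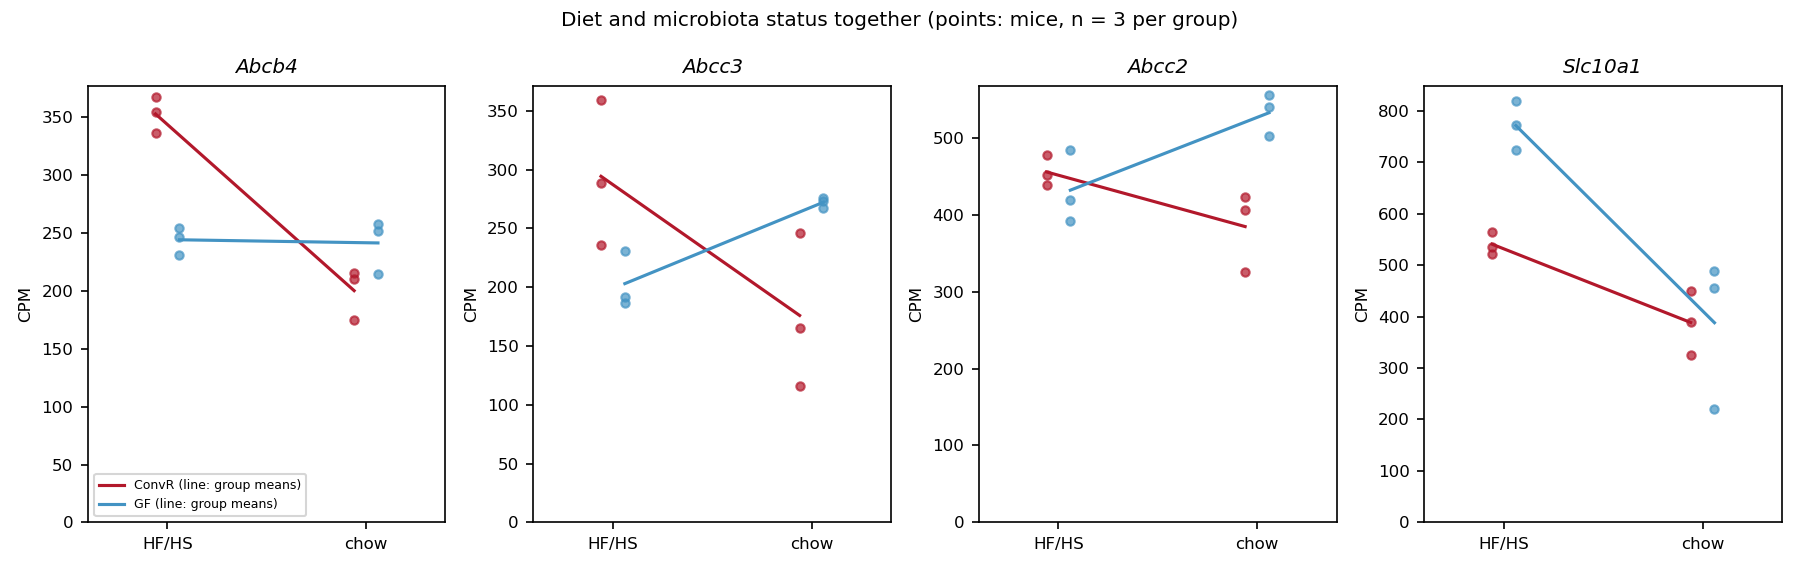
CPM of 4 transporters on HF/HS and chow, with points for single ConvR and GF livers and lines joining group means (n = 3). Abcb4 and Abcc3 are higher on HF/HS in ConvR mice, while the Abcb4 means in GF mice are 244 CPM on HF/HS and 241 CPM on chow, and Slc10a1 is higher on HF/HS in GF mice (adjusted p = 0.0171).

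Of the uptake carriers, Slc10a1 takes up conjugated bile acids from portal blood together with sodium. It had 535, 522 and 565 CPM in ConvR HF/HS and 724, 818 and 771 CPM in GF HF/HS mice. Levels on chow were 507, 641 and 528 CPM in ConvD, 390.3, 326 and 449 CPM in ConvR and 221, 489 and 455 CPM in GF mice. The GF HF/HS livers were the 3 highest, and the lowest was GF chow mouse 1, the liver with the highest immediate early transcripts. In GF mice Slc10a1 rose on HF/HS by 0.99 ± 0.22 (1.99-fold, adjusted p = 0.0171). Without GF chow mouse 1 the rise was 0.72 (adjusted p = 0.0129), and the call was lost without GF HF/HS mouse 2 (0.0616) or 3 (0.0566) and in a fit of the compared groups alone (0.0913). In ConvR mice the difference was 0.48 (interval 0.00 to 0.95, adjusted p = 0.17), with every HF/HS liver above every chow liver. The averaged HF/HS effect was 0.73 ± 0.16 (adjusted p = 0.00433), and 0.63 (adjusted p = 0.0478) without ConvR chow mice 1 and 2. The difference between the diet responses was -0.51 with an interval of -1.18 to 0.15. On HF/HS, ConvR minus GF was -0.51 (adjusted p = 0.28), and on chow it was 0.00 (interval -0.47 to 0.47). Averaged over diets, ConvR minus GF was -0.26, and it was -0.39 and passed at 0.0200 without GF chow mouse 1.

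Slco1b2, the organic anion carrier that takes up unconjugated bile acids, had the smallest ratio of highest to lowest liver among the 10. It had 1239, 1119 and 1293 CPM in ConvR HF/HS mice, against 1296, 1486 and 1518 CPM in GF HF/HS mice, which did not overlap. Chow livers had 972 to 1424 CPM, with all 3 groups overlapping. No comparison passed in edgeR's test of the counts, the ConvR minus GF difference on HF/HS being -0.24 (interval -0.51 to 0.04, adjusted p = 0.41). Its highest liver was 1.56 times its lowest, against 3.71 times for Slc10a1. For HF/HS in ConvR mice Slco1b2 differed by 0.10 (adjusted p = 0.65), and by 0.50 on log2(TPM + 1) (adjusted p = 0.00671, limma), or 0.21 relative to the median of all genes. The ConvD minus ConvR difference on chow was 0.15 (adjusted p = 0.52), and 0.43 on log2(TPM + 1) (adjusted p = 0.0251, limma), or 0.22 relative to that median. The averaged HF/HS effect was 0.11 (adjusted p = 0.38), and 0.34 on log2(TPM + 1) (adjusted p = 0.00969, limma), or 0.18 relative to that median.

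For the receptors, Nr1h4, which encodes FXR, had 68.0, 75.3 and 68.0 CPM in ConvR HF/HS and 74.7, 69.4 and 77.0 CPM in GF HF/HS mice. On chow it had 82.2, 89.7 and 86.7 CPM in ConvD, 92.3, 95.7 and 98.1 CPM in ConvR and 71.3, 73.5 and 107 CPM in GF mice. All ConvR HF/HS livers lay below all ConvR chow livers, while the GF groups overlapped. Nr1h4 fell by 0.44 on HF/HS in ConvR mice (SE 0.13, 0.74-fold, adjusted p = 0.0313) and by 0.31 on average (SE 0.09, adjusted p = 0.0192). The ConvR call was lost without any single ConvR liver, with adjusted p of 0.0531 to 0.0925. Without ConvR chow mice 1 and 2 together, the adjusted p was 0.17 in ConvR mice and 0.0596 on average. On the TPM scale the ConvR difference was -0.04 (adjusted p = 0.79) and the averaged one -0.08 (adjusted p = 0.50). The median of all genes on that scale was itself at 0.30 and 0.16, and relative to it Nr1h4 stood at -0.34 and -0.24. ConvR minus GF on chow was 0.18 and not called, but passed (0.40, adjusted p = 0.0246) without GF chow mouse 3.

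Nr0b2, the FXR target that encodes SHP, had 42.9, 35.0 and 35.3 CPM in ConvR HF/HS and 46.1, 27.4 and 29.1 CPM in GF HF/HS mice. On chow, values were 21.7, 30.7 and 27.2 CPM in ConvD, 33.8, 27.8 and 36.3 CPM in ConvR and 25.3, 53.8 and 60.0 CPM in GF mice. GF chow mice 2 and 3 had the 2 highest values of all, and GF chow mouse 1 lay among the ConvD livers. ConvD minus GF on chow was -0.81 ± 0.27 (interval -1.38 to -0.24), with an adjusted p of 0.0857 by edgeR and 0.0368 by DESeq2. Without GF chow mouse 1, the GF chow liver with the lowest Nr0b2, the difference was -1.09 with an adjusted p of 0.0192 by edgeR. It was not called with any other single library left out. ConvR minus GF on chow was -0.51 (adjusted p = 0.26), and -0.79 (adjusted p = 0.0569) without GF chow mouse 1. HF/HS minus chow in GF mice was -0.44 (adjusted p = 0.31), and -0.73 (adjusted p = 0.0523) without GF chow mouse 1. Neither of these, ConvR minus GF on chow or HF/HS minus chow in GF mice, was called with any single library left out. The other 3 comparisons of Nr0b2 between 2 groups had adjusted p of 0.54 to 0.86.

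**Figure D4:**
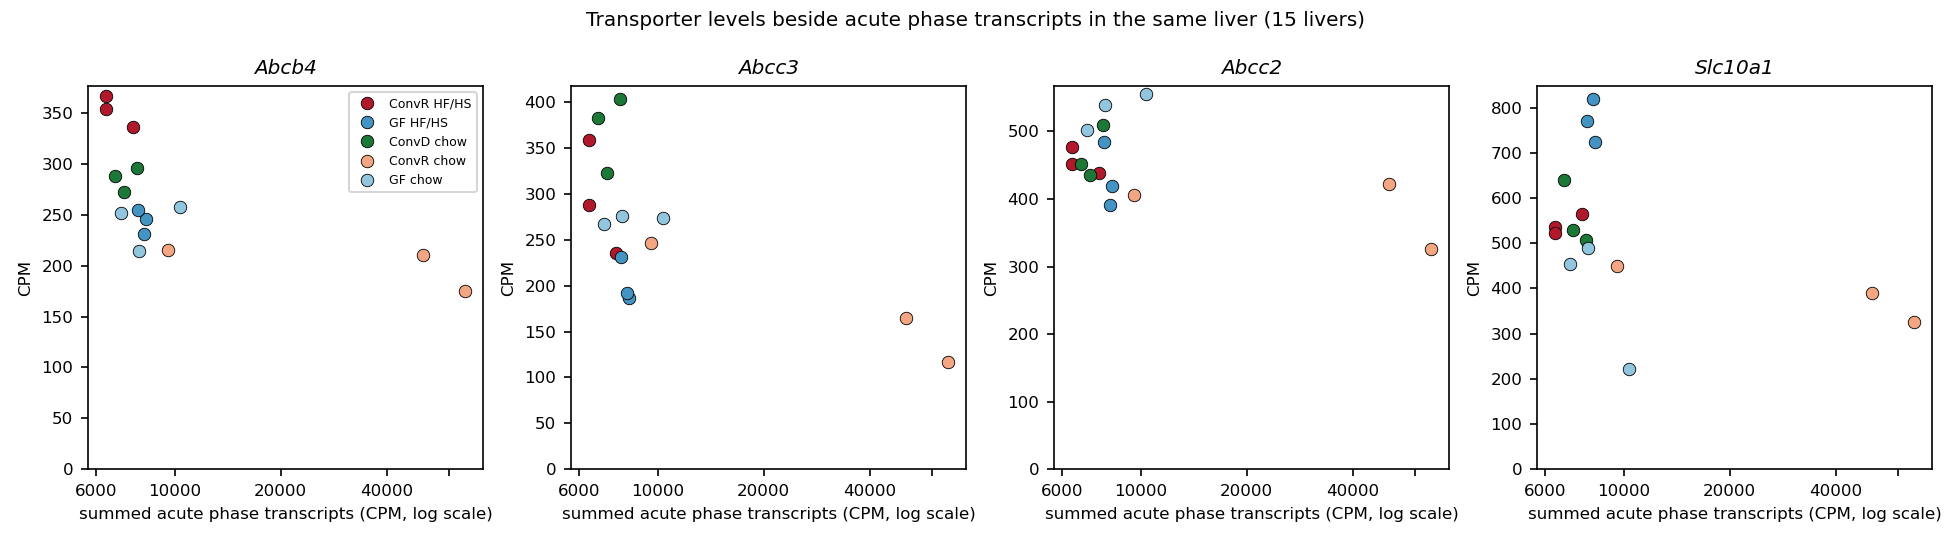
CPM of 4 transporters (y axis) against the summed acute phase transcripts of the same liver (x axis, CPM, log scale), 1 point per liver, coloured by group. ConvR chow mice 1 and 2, at 50671 and 66776 CPM on the x axis, have the 2 lowest Abcc3 values, 165 and 116 CPM.

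The other bile acid and biliary transporters formed a list of 17 genes, of which 15 were tested; Osta and Ostb, the subunits of a basolateral bile acid exporter, did not pass the filter on low counts. ConvR chow against GF chow livers gave 1 higher and 2 lower of 15. Abcg8, a subunit of the canalicular sterol exporter, averaged 55.9 ± 16.3 CPM in ConvR chow and 116 ± 18.8 CPM in GF chow livers (SD, n = 3 each; log2 fold change -1.05, adjusted p = 0.0194). Slc10a2, the apical sodium-dependent bile acid carrier of ileum and bile ducts, averaged 28.5 ± 9.3 CPM in ConvR chow and 11.9 ± 4.9 CPM in GF chow livers (1.27, adjusted p = 0.0195). It is also among the cholangiocyte markers, whose sum was 190 and 155 CPM in ConvR chow mice 1 and 2, against at most 109 CPM in GF chow livers. Abcc6 fell by 0.66 (adjusted p = 0.0243). Slc10a2 fell by 1.10 in ConvD chow against ConvR chow livers, 1 of 15. HF/HS in ConvR mice raised Abcg8 (0.70) and Abcb1a (1.11) and lowered Abcb1b (-1.35), 3 of 15. Abcb1a and Abcb1b are related drug pumps, and both were low. Abcb1a averaged 4.08 ± 1.81 CPM in ConvR HF/HS and 1.88 ± 0.38 CPM in ConvR chow livers. Abcb1b averaged 0.99 ± 0.39 and 2.53 ± 0.63 CPM there. Whether reads of 1 of them were assigned to the other was not tested, so their opposite signs are uncertain. HF/HS in GF mice raised Slco2b1 (0.41), 1 of 15. ConvD against GF on chow and ConvR against GF on HF/HS gave no call of 15.

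Of 16 partners of FXR and related receptors, 14 were tested, all but Vdr and Gpbar1. Klb, the co-receptor through which ileal FGF15 signals to hepatocytes, averaged 20.8 ± 1.9 CPM in ConvR chow and 32.9 ± 4.0 CPM in GF chow livers and fell (-0.66, adjusted p = 0.0324). It rose on HF/HS in ConvR mice (0.57, adjusted p = 0.0236) and in GF mice (0.51, adjusted p = 0.0471). Klb was also higher in ConvD chow than in ConvR chow livers (0.58, adjusted p = 0.0436), as was the orphan receptor Nr2f2 (0.81, adjusted p = 0.0462). The co-repressor Ncor1 rose in ConvD chow against GF chow livers (0.31, adjusted p = 0.0372) and on HF/HS in GF mice (0.33, adjusted p = 0.0208). ConvR against GF on HF/HS gave no call of 14.

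Bile acid synthesis and conjugation was represented by 18 genes, all tested. Cyp7a1, the rate-limiting enzyme of the classical pathway and a gene that SHP and FGF15 signalling repress, averaged 17.6 ± 5.7 CPM in ConvR HF/HS, 20.8 ± 4.0 CPM in GF HF/HS, 53.3 ± 11.9 CPM in ConvD chow, 54.2 ± 18.7 CPM in ConvR chow and 32.4 ± 10.8 CPM in GF chow livers (SD, n = 3 each). HF/HS lowered it in ConvR mice (-1.63, adjusted p = 0.00329), and the difference in GF mice was -0.64 (adjusted p = 0.19). On chow, ConvR minus GF was 0.74 (adjusted p = 0.15) and ConvD minus GF 0.71 (adjusted p = 0.15). Cyp8b1, the 12-alpha-hydroxylase that makes cholic acid, rose on HF/HS in ConvR mice (0.86, adjusted p = 0.0309), with 0.09 in GF mice (adjusted p = 0.85). On chow Cyp8b1 differed by -0.47 in ConvR and 0.26 in ConvD against GF livers, neither called.

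Of these 18 genes, HF/HS in ConvR mice gave 4 higher and 3 lower, and besides the hydroxylases just given these included Cyp2c70 (-1.53), which makes muricholic acids in mice, Cyp46a1 (2.83), which hydroxylates the cholesterol side chain, and Cyp39a1 (1.11). Cyp46a1 was low, with 3.39 ± 2.12 CPM in ConvR HF/HS and 0.47 ± 0.17 CPM in ConvR chow livers. HF/HS in GF mice gave 1 higher, Cyp39a1 (2.40), and 4 lower, Acot8 (-0.52) and Cyp2c70 (-0.97) among them. Cyp39a1, the oxysterol 7-alpha-hydroxylase, was also higher with a microbiota. It averaged 10.3 ± 0.8 CPM in ConvR chow, against 2.35 ± 1.09 CPM in GF chow livers (2.14, adjusted p = 0.000742). ConvD chow livers averaged 9.45 ± 0.75 CPM (2.02 against GF chow, adjusted p = 0.00298). On HF/HS it averaged 22.2 ± 3.5 CPM in ConvR and 12.3 ± 0.9 CPM in GF livers (0.85, adjusted p = 0.0430). Cyp39a1 was the only call of 18 for ConvR against GF within either diet. Averaged over the diets, ConvR against GF gave 1 higher, again Cyp39a1 (1.49), and 6 lower, Cyp2c70 (-0.62) among them. Cyp2c70 was also lower in ConvD chow than in GF chow livers (-0.94, adjusted p = 0.0327). ConvD against ConvR on chow gave no call of 18.

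The canalicular scaffold and traffic list held 12 genes, all tested. Radixin (Rdx), which anchors canalicular transporters to actin, rose on HF/HS in ConvR mice (0.42, adjusted p = 0.00993) and in GF mice (0.46, adjusted p = 0.0126). The scaffold Slc9a3r1 fell on HF/HS in ConvR mice (-0.57, adjusted p = 0.00424), and the tight junction protein Tjp1 rose on HF/HS in GF mice (0.44, adjusted p = 0.0402). None of the 12 was called in any of the 4 microbiota comparisons within a diet.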

How the data were processed

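Per the submitters' processing notes, Bowtie2, RSEM 1.2.23 and the build mm9 were used; the notes' order of steps is not given in the sources used here. Per the labels' protocols, stranded polyadenylated RNA libraries were made. The authors deposited expected counts and TPM per gene for each library; expected counts are RSEM estimates, not scaled between libraries, and TPM are set per unit of transcript length and per library. Gene names are those of the files, and no strand setting of the counting is given. Expected counts were rounded to whole numbers and filtered with edgeR's filterByExpr (minimum count 10), leaving 12377 genes. Libraries were scaled by TMM, and printed CPM use those factors. All 15 libraries entered 1 quasi-likelihood fit with 5 group means (edgeR 4.0.16, R 4.3.3; 10 residual degrees of freedom), and p-values were adjusted over all genes tested. The labels call the 3 libraries of a group biological replicates, numbered by their titles. The same-numbered libraries of different groups did not deviate together, so no pairing was used. Alternatives used DESeq2 1.42.0, limma 3.58.1 on log2(TPM + 1), no filter, a replicate block, removal of gene length trends and left-out libraries. The test was tried on simulated counts. The 10 genes and all gene lists were chosen with earlier results of these data known. Text names the 10 genes, up to 3 called genes per list and comparison with the smallest adjusted p, and Cyp7a1 and Cyp8b1. Older symbols in the files were matched through RefSeq synonyms, so Slc51a and Slc51b appear as Osta and Ostb. Of all list genes, only Ly6g had no match. Depth was 14737600 to 21794800 expected counts per library, and errors cover the spread between mice.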

Additional observations from a re-analysis of the deposited data

Results flagged for a closer look

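Abcc2 and Abcc3 were flagged because their groups did not overlap in either of 2 comparisons, with opposite directions. How many of all genes share such a pattern was not counted, so it does not set them apart. At an unadjusted p below 0.05 by edgeR, the interaction held 12.7% of all genes. Abcc2 was higher on HF/HS in every ConvR liver and lower on HF/HS in every GF liver, and the interaction on the log2 scale was 0.55 (unadjusted p = 0.0047, adjusted p = 0.23, edgeR). Abcc3 was higher in ConvR than in GF livers on HF/HS and lower on chow, in every liver, with an interaction of 1.17 (unadjusted p = 0.0017, adjusted p = 0.20, edgeR). Neither passed the adjusted threshold over all genes by edgeR. Limma on log2(TPM + 1) called both (0.90 for Abcc2 and 1.54 for Abcc3, adjusted p = 0.0336 for both), and Abcc3 also passed by DESeq2 (adjusted p = 0.0205) and by edgeR without ConvR chow mouse 3 (1.49, adjusted p = 0.00365). Without ConvR chow mice 1 and 2, which had the highest summed acute phase transcripts, the interaction was 0.47 for Abcc2 and 0.68 for Abcc3, with 1 ConvR chow liver left.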

How the results depend on the processing

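Of 1620 recomputed values of single genes, 1521 kept their side of the threshold, 51 lost a call, 48 gained one and none of the called values changed sign, while 67 uncalled values did. The calls of Abcb4 on HF/HS in ConvR mice and averaged, and of Slc10a1 averaged, held under every alternative. DESeq2's Wald test called 2 of the 10 genes in ConvR against GF on chow, among 1044 of all genes. It called 1 in ConvD against GF, among 1116, and 2 for the interaction, among 109. Fitting the compared groups alone called 0 in ConvR against GF on chow (Abcc2 at an adjusted p of 0.28), where 0 of all genes were called. It called 0 for HF/HS in GF mice, where 256 of all genes were called. It called 2 in ConvR against GF on HF/HS and 0 in ConvD against ConvR, with the counts among all genes not given here. Limma on log2(TPM + 1) is given with its calls among all genes in brackets. It called 1 in ConvD against GF (912), 6 in ConvD against ConvR (3725) and 7 for HF/HS in ConvR mice (6100). For HF/HS averaged it called 5 (4991), for the interaction 3 (1192) and for any difference 7 (5886). Leaving out ConvR chow mice 1 and 2 together called 0 in ConvR against GF on chow, 0 in ConvD against ConvR and 1 for HF/HS in ConvR mice; fewer samples were fitted.

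Leaving out each library in turn gave ranges of calls among the 10, with the range among all genes in brackets. ConvR against GF on chow had 0 to 2 (46 to 1641), ConvD against GF 0 to 1 (83 to 982) and ConvD against ConvR 0 to 3 (16 to 1595). ConvR against GF on HF/HS had 0 to 1 (16 to 278). HF/HS in ConvR mice had 1 to 2 (991 to 2133) and HF/HS in GF mice 0 to 1 (304 to 1399). The interaction had 0 to 2 (0 to 450) and ConvR against GF averaged 0 to 1 (450 to 1839). HF/HS averaged had 3 to 4 (2344 to 3213) and any difference 2 to 5 (2149 to 3968).

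Genes called among all 12377 moved over 1.5 times. ConvR against GF on chow had 584, 1044 by DESeq2 and 0 with the compared groups alone. ConvD against GF had 692, 1116 by DESeq2 and 11 alone. ConvD against ConvR had 681, 3725 on TPM and 6 without ConvR chow mice 1 and 2. ConvR against GF on HF/HS had 200 and 791 on TPM. HF/HS in ConvR mice had 1802, 6100 on TPM and 354 without those mice. HF/HS in GF mice had 1182 and 256 alone. The interaction had 0 and 1192 on TPM. ConvR against GF averaged had 1038 and 193 without those mice. HF/HS averaged had 3105 and 4991 on TPM. Any difference had 3181 and 5886 on TPM. Removing the gene length trend gave 287 in ConvD against GF and 660 for HF/HS in GF mice. With 1 library left out, ConvR against GF on chow had 46 (without ConvR chow mouse 2) to 1641 (without ConvR chow mouse 3), and ConvD against ConvR had 16 (without ConvD chow mouse 2) to 1595 (without ConvR chow mouse 3). ConvD against GF had as few as 83 (without ConvD chow mouse 1), ConvR against GF on HF/HS 16 (without GF HF/HS mouse 2), HF/HS in ConvR mice 991 (without ConvR HF/HS mouse 2) and HF/HS in GF mice 304 (without GF HF/HS mouse 3). The interaction had up to 450 and ConvR against GF averaged 450 (without ConvR chow mouse 2) to 1839, both highest without ConvR chow mouse 3. On TPM the share of higher calls was 94.6% in ConvD against ConvR, 88.5% in ConvD against GF, 17.1% in ConvR against GF on chow, 93.8% on HF/HS, 66.3% averaged, 95.6% for HF/HS in ConvR mice, 64.8% in GF mice and 90.7% averaged; the cause was not tested, and gene length correlated with library level at rho of -0.45 to 0.06 in ConvR and GF chow livers and 0.10 to 0.38 in the other 9.

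Same-numbered libraries correlated in their deviations at -0.23 to 0.25 (median 0.01, 2 of 30 pairs over 0.1), so the numbers do not pair the mice. Calls by edgeR with a replicate block are given with the calls among all genes in brackets. It called 1 of the 10 genes in ConvR against GF on chow (402), 0 in ConvD against GF (489) and 2 in ConvD against ConvR (479). It called 1 in ConvR against GF on HF/HS (143), 3 for HF/HS in ConvR mice (1617) and 1 for HF/HS in GF mice (1000). The interaction had 0 (0), ConvR against GF averaged 0 (850) and HF/HS averaged 4 (2928). Any difference had 3, with the count among all genes not given here. Abcb11 was lost in ConvD against ConvR (adjusted p = 0.0601).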

Other observations

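Across the 15 livers, 45 pairs of the 10 genes were correlated on log2 CPM, and none passed an adjusted p below 0.05 by permutation. Slc10a1 and Slco1b2, the uptake carriers, had Pearson's r of 0.71 and Spearman's rho of 0.65 (raw permutation p = 0.0036 and 0.0104, adjusted p = 0.0583 and 0.156). Their r was 0.58 without GF chow mouse 1 and ConvR chow mouse 2, the livers farthest from the median of Slc10a1, and 0.82 after group means were removed. The exporters Abcb4 and Abcc3 had r of 0.70 and rho of 0.70 (raw p = 0.0033 and 0.0044, adjusted p = 0.0583 and 0.0999), with r of 0.60 without ConvR chow mouse 2 and ConvR HF/HS mouse 1. After group means were removed, r was 0.65. The receptor Nr1h4 and its target Nr0b2 had r of 0.11 and rho of 0.03 (raw p = 0.69 and 0.94, adjusted p = 0.79 and 0.96), with r of -0.34 without GF chow mouse 3 and ConvR chow mouse 3. Their r was 0.53 after group means were removed, a value that was not tested.

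Among 8543 genes averaging 5 CPM or more, the pattern most like that of Abcb11 over the 15 livers was that of Rnf4 (Pearson's r 0.92), followed by Gas7 (0.89). For Nr0b2 they were Dct (0.81), Arrdc3 (0.81) and Spns2 (0.78). These likenesses are descriptions chosen as the highest of all genes.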
